A study of Mus musculus and Homo sapiens with 18 samples.

Results

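The RNA of young mouse lenses with and without deletion of Qk was compared over all genes and functions. It was measured in 6 of the 18 RNA-seq samples of the series, all 6 lens libraries, chosen by their labels, and 12201 of the 46882 genes in the lens table had enough counts to be tested. The 3 Ctrl lenses came from Nestin-CreERT2; QkL/+ mice, which carried 1 floxed and 1 wild-type allele of Qk, and the 3 Qk-iCKO lenses from Nestin-CreERT2; QkL/L mice, in which both alleles were floxed at exon 2. The titles call the Ctrl lenses WT, their condition label gives QkL/+ for all 3, and the study's methods list other control genotypes as well. Both groups carried the tamoxifen-inducible Cre recombinase under the Nestin promoter, tamoxifen was given at P7 and P8, and lenses were taken at P17 to P19. Cre acts only in cells that used the Nestin promoter when tamoxifen was given, the Ctrl lenses were themselves heterozygous for the floxed allele, and each library was made from whole lens tissue.

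Qk encodes Quaking, an RNA-binding protein of the STAR family that acts on splicing, RNA stability and translation. The lens is a transparent organ without vessels of its own, in which a single layer of epithelial cells at the front divides and turns into elongated fibre cells, and a thick basement membrane, the capsule, encloses both. Fibre cells fill with crystallins, build a membrane skeleton of spectrin and beaded filaments, join through connexins and the water channel Mip, and then degrade their nuclei and organelles. The cholesterol synthesis, crystallin and proteasome genes, which the study itself examined, are left out of the account below.

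Between 10319320 and 16425331 reads per lens were assigned to genes, and levels are CPM, counts per 1000000 on library sizes scaled by TMM. The TMM factors lay between 0.888 and 0.962, apart from 1.48 in Qk-iCKO lens 1, and crystallins took 56.3% of its counts against 64.7 to 66.9% in the other 5. Transcripts of 4 Y-linked genes together had 0, 0 and 3 counts in Ctrl lenses 1 to 3 and 1, 1051 and 930 in Qk-iCKO lenses 1 to 3, and Xist had 865, 996, 773, 2345, 1 and 4, so the Ctrl lenses and Qk-iCKO lens 1 read as female and Qk-iCKO lenses 2 and 3 as male. Sex and deletion can be told apart here only through Qk-iCKO lens 1. The share of genes called higher was 10.4% on the X chromosome (40 of 385) and 8.47% on the autosomes (965 of 11397), and 2.60% and 3.93% were called lower. Qk itself (chromosome 17, 10202601 to 10319854, minus strand, GRCm38) measured 120.4, 116 and 127 CPM in the Ctrl lenses and 100.5, 86.9 and 106 CPM in the Qk-iCKO lenses (log2 fold change −0.31, SE 0.14, adjusted p = 0.2 from edgeR). All 3 Qk-iCKO lenses lay below all 3 Ctrl lenses for Qk, but the difference did not pass the test, and counts per gene do not resolve the floxed exon.

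Of the 12201 genes tested, 1023 were higher (8.38%) and 473 lower (3.88%) in Qk-iCKO lenses at an adjusted p under 0.05 (edgeR's quasi-likelihood test with Benjamini-Hochberg adjustment, used for every adjusted p given here). At an unadjusted p under 0.05, 17.3% of genes were higher and 11.4% lower, and the CPM ranges of the groups were separate in 18.2% and 17.1%. With scaling to total counts alone, which moves the median log2 fold change of all genes from 0.01 to 0.29, 768 genes were higher and 116 lower, so the share of higher genes among those called went from 68.4 to 86.9%. Without Ctrl lens 1, 2 or 3 the calls fell to 581, 690 and 661, and without Qk-iCKO lens 1, 2 or 3 they came to 1352, 1334 and 1709. Every gene called in both the full fit and any of these fits kept its direction. The 187 genes called among the 194 that the rule for single genes picked were followed through 13 or 14 alternative settings, and 107 of them, 77 higher and 30 lower, were called in each. Genes named below as called are among these 107 or carry the setting that ended the call or the highest adjusted p over the settings.

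Increases were larger than decreases and lay in scarcer transcripts. The median log2 fold change was 1.91 among the genes called higher and −0.91 among those called lower. At least 4-fold changes were called for 490 higher and 33 lower genes, and at least 64-fold changes for 75 higher and 0 lower genes. Of the 1001 genes with a Ctrl mean under 1 CPM, 438 were higher and 0 lower, while of the 519 genes with a Ctrl mean of 100 CPM or more, 6 were higher and 62 lower. A gene that is scarce in Ctrl lenses can enter the test only through the Qk-iCKO lenses, so the first of these splits follows in part from the filter. The genes called higher together held 0.562 to 0.625% of all counts in Ctrl lenses and 1.55 to 3.10% in Qk-iCKO lenses, and those called lower held 3.81 to 4.00% and 1.93 to 2.41%. In the plot of change against level the points above the middle line therefore fan out to the left and those below it run far to the right.

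**Figure D1:**
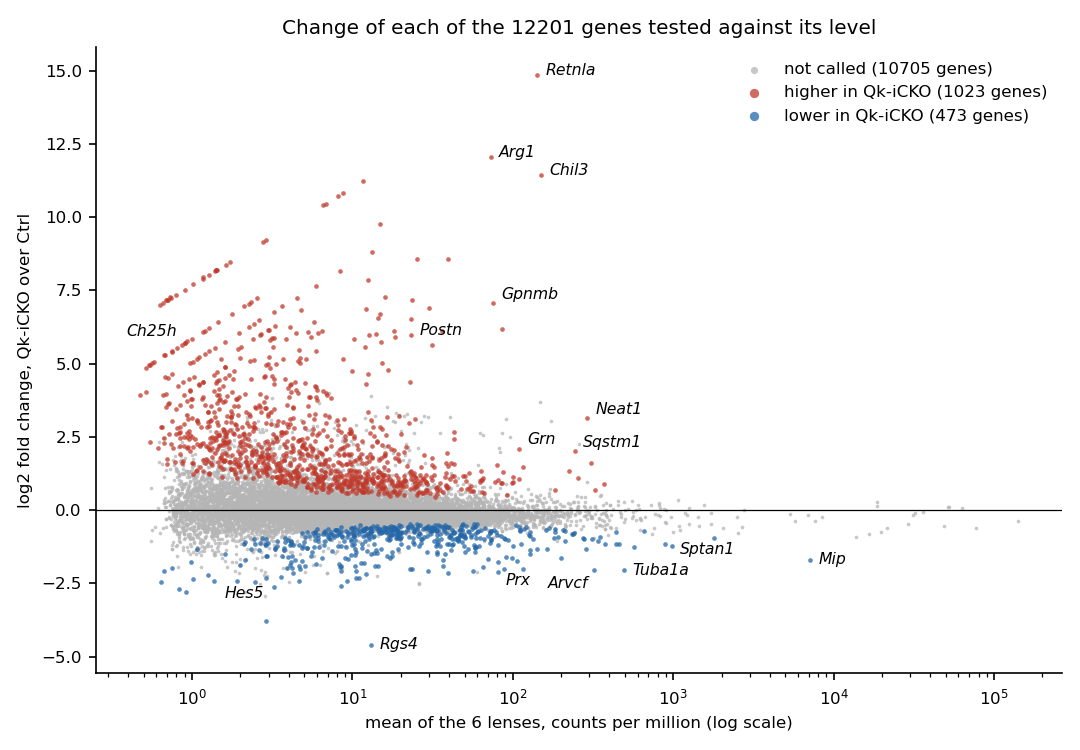
Each point is 1 of the 12201 genes tested, with its mean over the 6 lenses in CPM on a log axis and the log2 fold change of Qk-iCKO over Ctrl lenses on the vertical axis. The 1023 genes called higher reach from the scarcest genes up to Retnla, while the 473 called lower include abundant lens genes such as Mip, Sptan1 and Tuba1a. The slanting rows of points at the upper left are genes with 0 to 3 counts in the Ctrl lenses, whose fitted values depend on the prior count.

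The 3 largest increases among the single genes picked by the rule were of genes that macrophages are known to make. Retnla, a secreted resistin-like protein that macrophages make in response to interleukin 4, had 0 counts in each Ctrl lens and 4124, 3136 and 2908 counts, or 253, 304 and 294 CPM, in the Qk-iCKO lenses. Against a floor of 3 counts over the Ctrl group it was at least 3841-fold higher (adjusted p = 0.00011, edgeR). Chil3, a chitinase-like protein secreted by macrophages, measured 0.0829, 0.0713 and 0.137 CPM in the Ctrl lenses and 495, 238 and 171 CPM in the Qk-iCKO lenses (log2 fold change 11.45, SE 0.66, adjusted p = 0.000178, edgeR). All 3 Qk-iCKO lenses carried both transcripts at levels of abundant genes, and no Ctrl lens reached 1 CPM of either. Arg1, the arginase that turns arginine into ornithine, had 1 count over the Ctrl lenses and 173, 74.05 and 188 CPM in the Qk-iCKO lenses, a ratio of 6069.7 (95% counting interval 1089 to 239784), which covers counting error only.

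RefSeq's promoter windows of the largest changes (GRCm38.p6, 250 bases before to 50 after the annotated start) are shown for Retnla and Chil3, 2 of the 3 genes with the largest increases, and for Rgs4, the gene with the largest decrease, since these carry the extremes of the comparison. Capitals mark matches on either strand to TTCNNNNGAA, the spacing bound by STAT6 downstream of interleukin 4, to TTGCNNAA, a C/EBP motif, and to the TATA box TATAAA, which are held by 6.95, 10.8 and 13.6% of the 32851 promoter windows of the table. The matches do not overlap each other.
Retnla, chr16:48842359-48842658, plus strand: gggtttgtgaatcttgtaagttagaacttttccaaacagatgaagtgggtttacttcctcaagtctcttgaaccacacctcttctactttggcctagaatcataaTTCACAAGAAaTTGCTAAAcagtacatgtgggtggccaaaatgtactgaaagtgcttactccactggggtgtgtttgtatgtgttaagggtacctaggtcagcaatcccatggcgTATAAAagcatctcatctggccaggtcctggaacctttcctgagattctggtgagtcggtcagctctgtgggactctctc
Chil3, chr3:106167515-106167814, minus strand: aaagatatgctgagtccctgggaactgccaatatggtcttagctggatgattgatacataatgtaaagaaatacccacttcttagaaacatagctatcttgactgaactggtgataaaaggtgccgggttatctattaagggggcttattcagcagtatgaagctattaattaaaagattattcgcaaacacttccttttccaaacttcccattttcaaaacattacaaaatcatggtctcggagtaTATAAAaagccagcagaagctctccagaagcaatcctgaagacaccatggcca
Rgs4, chr1:169747593-169747892, minus strand: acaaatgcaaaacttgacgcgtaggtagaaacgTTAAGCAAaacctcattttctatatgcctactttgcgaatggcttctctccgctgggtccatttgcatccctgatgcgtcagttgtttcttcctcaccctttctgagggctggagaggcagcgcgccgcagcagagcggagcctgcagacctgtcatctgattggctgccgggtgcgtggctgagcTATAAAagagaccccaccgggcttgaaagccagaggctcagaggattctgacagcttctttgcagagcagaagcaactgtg
The Retnla window holds the STAT spacing at bases 106 to 115, the C/EBP motif at 117 to 124 and a TATA box at 221 to 226, counted from the 5′ end of the window. The Chil3 window holds only the letters TATAAA of these motifs, at bases 248 to 253. That match spans the annotated start, while those of Retnla and Rgs4 lie before it. The Rgs4 window holds the C/EBP motif at 34 to 41 and a TATA box at 220 to 225. A match is a description of the letters and no measure of binding. A comparison of motif shares between the called and the other genes was void, because only 77.4% of the genes called higher and 75.1% of those called lower could be matched to the promoter table.

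Among the genes tested, 27 had 0 counts in every Ctrl lens and at least 10 in each Qk-iCKO lens, and 0 showed the opposite pattern. Mgl2, a C-type lectin of macrophages and dendritic cells, measured 12.8, 16.3 and 19.8 CPM in the Qk-iCKO lenses and was at least 221-fold higher. Ccl24, a chemokine that attracts eosinophils, measured 15.3, 16.9 and 8.68 CPM and was at least 185-fold higher. Spp1, the matrix phosphoprotein osteopontin, varied much more between Qk-iCKO lenses, with 17.8, 1.06 and 33.6 CPM, and its call (adjusted p = 0.038, edgeR) was lost without any 1 of the Ctrl lenses or of Qk-iCKO lenses 1 and 3, with adjusted p up to 0.0978. Chosen after their values were seen, Tlr8, a receptor for single-stranded RNA, had 27, 38 and 50 counts, Pdcd1lg2, a ligand of the checkpoint receptor PD-1, had 41, 35 and 38, and Il13ra2, a decoy receptor for interleukin 13, had 30, 15 and 11 counts in the Qk-iCKO lenses. Counts of Rnase2a, of the eosinophil ribonuclease family, went from 0 to 346, 283 and 213, but this family has near-identical copies between which reads may be split.

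Nearly all macrophage and leukocyte genes that could be tested were called higher. The table holds 26, of which 22 were tested, and 21 of these were higher, against 8.38% of all genes. Their median log2 fold change was 5.50 beside 0.01 for all genes, and 19 to 22 were higher with each lens left out in turn. Members scarce in Ctrl lenses could enter the test only through the Qk-iCKO lenses, so 8.38% is not a like background for them. Of all 1001 tested genes with a Ctrl mean under 1 CPM, 438 were higher. Csf1r, the receptor for the macrophage growth factor CSF1, measured 0.663, 0.998 and 1.78 CPM in the Ctrl lenses and 24.9, 36.97 and 35.2 CPM in the Qk-iCKO lenses (log2 fold change 4.78, SE 0.34, adjusted p = 0.000548, edgeR). Mrc1, the mannose receptor, measured 0.331, 0.570 and 0.549 CPM in the Ctrl lenses and 40.7, 48.3 and 49.5 CPM in the Qk-iCKO lenses (log2 fold change 6.53, SE 0.23, adjusted p = 2.46e-05, edgeR). Both were scarce in every Ctrl lens and of similar size in the 3 Qk-iCKO lenses. The scavenger receptor Cd163 measured 1.33, 0.998 and 0.549 CPM in the Ctrl lenses and 21.2, 32.6 and 18.6 CPM in the Qk-iCKO lenses (log2 fold change 4.66, SE 0.35, adjusted p = 0.000554, edgeR). The lysosomal protease Ctss measured 0.166, 0.499 and 0.480 CPM in the Ctrl lenses and 23.7, 18.7 and 32.6 CPM in the Qk-iCKO lenses (log2 fold change 5.96, SE 0.37, adjusted p = 0.000228, edgeR). The 6 defining markers Ptprc, Cd68, Csf1r, Aif1, Adgre1 and Tyrobp summed to 1.24, 1.14 and 2.61 CPM in Ctrl and 59.6, 62.8 and 75.4 CPM in Qk-iCKO lenses. Aif1 had 0 counts in the Ctrl lenses and 2, 8 and 3 in the Qk-iCKO lenses. In RNA from whole tissue, more cells of a type and more RNA per cell cannot be told apart.

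Gpnmb, a membrane glycoprotein of phagocytes and pigment cells, was the called gene with the smallest p. It measured 1.08, 1.35 and 0.892 CPM in the Ctrl lenses and 165, 139 and 142 CPM in the Qk-iCKO lenses (log2 fold change 7.06, SE 0.22, adjusted p = 2.46e-05, edgeR), an even rise in the 3 lenses. Srgn, the proteoglycan of leukocyte granules, had 2 counts over the Ctrl lenses and 38.5, 10.1 and 30.6 CPM in the Qk-iCKO lenses, a ratio of 576 (95% counting interval 159 to 4763). For Clec7a, the beta-glucan receptor of myeloid cells, the ratio was 337 (95% counting interval 92.8 to 2787), and for Fcgr3, an Fc receptor, it was 229.9 (95% counting interval 63.2 to 1904). Lcn2, a siderophore-binding secreted protein, measured 0.249, 0.285 and 0.0686 CPM in the Ctrl lenses and 151, 83.4 and 1.51 CPM in the Qk-iCKO lenses. Qk-iCKO lens 3 lay far below lenses 1 and 2 for Lcn2, and its call (adjusted p = 0.0186, edgeR) was lost without any 1 of the Ctrl lenses, with adjusted p up to 0.0847.

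Complement, antigen presentation and chemokine genes rose with them. Of 16 complement genes tested 14 were higher (9 to 14 with each lens left out) and 0 lower, with a median log2 fold change of 4.12. The limit of the filter given for the macrophage genes holds here and for the chemokine genes below. C1qa, a chain of the recognition molecule of the classical pathway, measured 0.331, 0.570 and 0.6177 CPM in the Ctrl lenses and 23.4, 41.3 and 43.5 CPM in the Qk-iCKO lenses (log2 fold change 6.10, SE 0.36, adjusted p = 0.000178, edgeR). C3, on which all complement pathways converge, measured 0.331, 0.214 and 0.0686 CPM in the Ctrl lenses and 30.01, 46.9 and 18.2 CPM in the Qk-iCKO lenses (log2 fold change 7.26, SE 0.55, adjusted p = 0.000554, edgeR). C1qb and C1qc had log2 fold changes of 5.56 and 6.70, and no Ctrl lens of these 4 genes reached 1 CPM. Of 17 MHC and antigen presentation genes 10 were higher (7 to 12 with each lens left out), with a median of 2.06. B2m, the invariant light chain of MHC class I, measured 4.31, 3.28 and 3.84 CPM in the Ctrl lenses and 35.5, 39.5 and 31.2 CPM in the Qk-iCKO lenses (log2 fold change 3.21, SE 0.18, adjusted p = 0.000173, edgeR). The class I heavy chain H2-D1 measured 3.56, 2.78 and 3.43 CPM in the Ctrl lenses and 28.7, 26.04 and 34.3 CPM in the Qk-iCKO lenses (log2 fold change 3.18, SE 0.18, adjusted p = 0.000178, edgeR). Class I heavy chain genes are similar in sequence, so reads may be shared between them. Cd74, the invariant chain of MHC class II, measured 0.0829, 0.356 and 0.137 CPM in the Ctrl lenses and 13.1, 19.5 and 39.98 CPM in the Qk-iCKO lenses (log2 fold change 6.87, SE 0.64, adjusted p = 0.00108, edgeR), with Qk-iCKO lens 3 the highest.

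Among 17 chemokine and cytokine genes 14 were higher (9 to 16 with each lens left out), with a median of 3.87. Ccl6 measured 0.331, 0.428 and 0.206 CPM in the Ctrl lenses and 70.1, 30.3 and 40.6 CPM in the Qk-iCKO lenses (log2 fold change 7.16, SE 0.46, adjusted p = 0.000276, edgeR). Ccl9 and Ccl7, also ligands that attract myeloid cells, had 1 and 3 counts over the Ctrl lenses, and their ratios were 1260.0 (95% counting interval 226 to 49812) and 132 (95% counting interval 44.8 to 644). The receptor Ccr1 measured 0.166, 0.0713 and 0.0686 CPM in the Ctrl lenses and 4.79, 3.87 and 3.03 CPM in the Qk-iCKO lenses (log2 fold change 5.18, SE 0.44, adjusted p = 0.000778, edgeR). Interferon-stimulated genes moved less, with 8 higher and 1 lower of 20 and a median of 0.88, and 1 to 10 were higher with each lens left out. Irf1, a transcription factor of the interferon response, measured 1.82, 1.57 and 1.37 CPM in the Ctrl lenses and 6.93, 7.07 and 4.34 CPM in the Qk-iCKO lenses (log2 fold change 1.95, SE 0.28, adjusted p = 0.00554, edgeR). Each Qk-iCKO lens lay above each Ctrl lens.

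**Figure D2:**
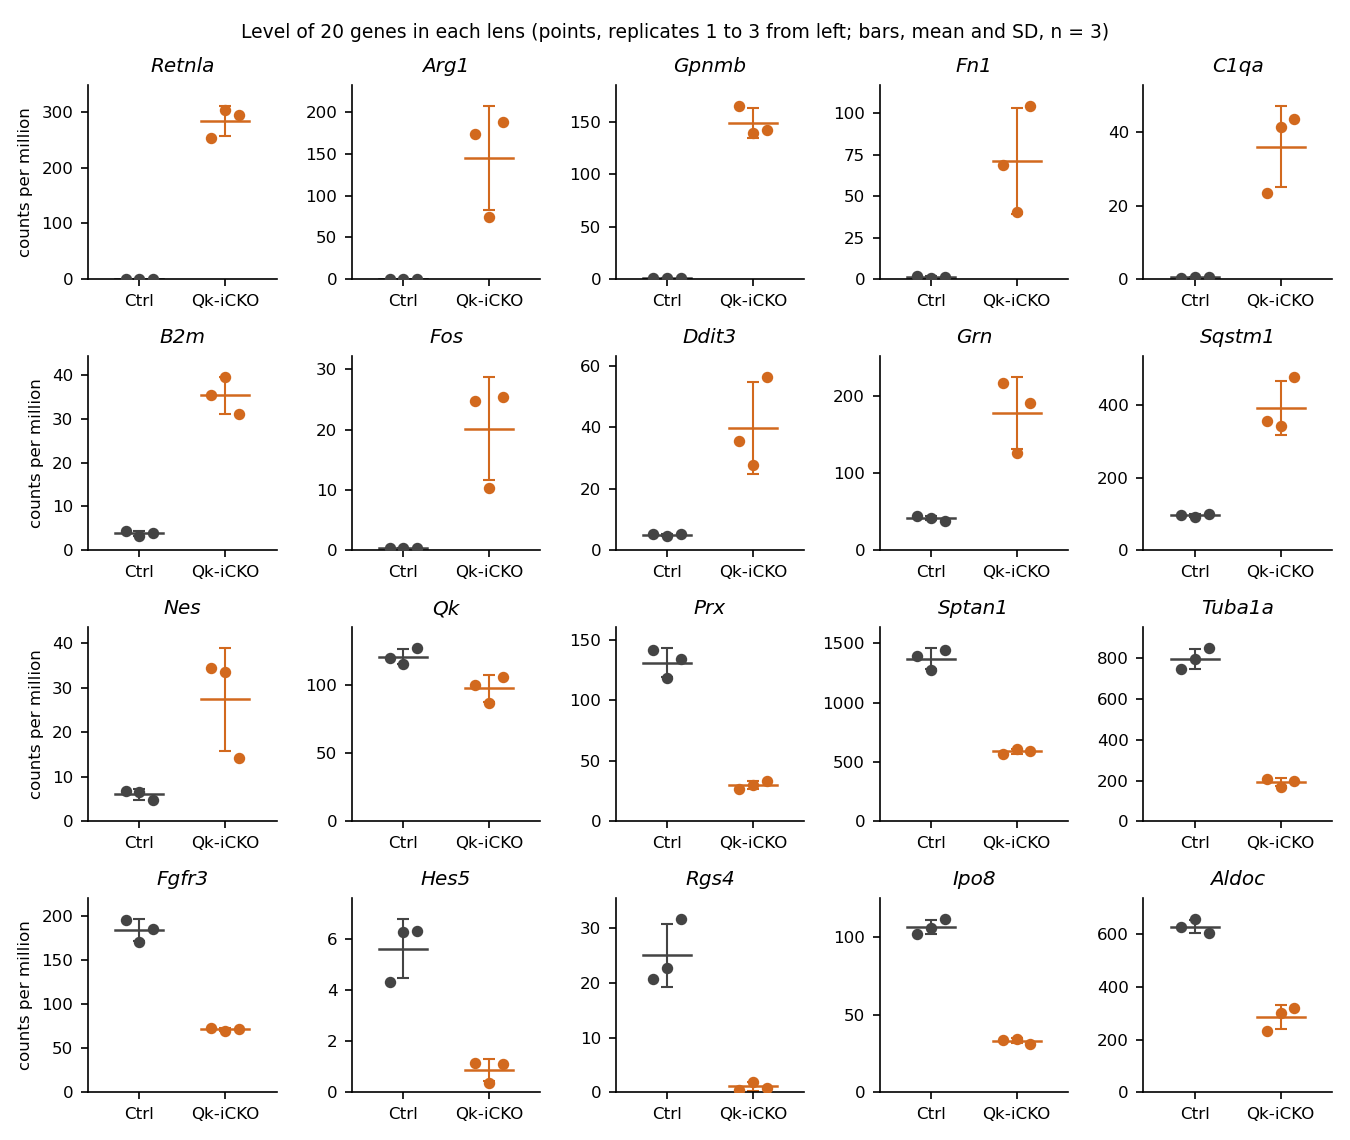
The level of 20 genes in CPM is shown for each of the 3 Ctrl and 3 Qk-iCKO lenses, with bars for the mean and SD (n = 3) and linear axes from 0. For 19 of them the groups are called different, and Qk, with lower values in all 3 Qk-iCKO lenses on this TMM scaling, is not called.

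Markers of the other tissues that surround the lens were unevenly spread over the libraries. Photoreceptor markers (Sag, Gnat1 and Pde6b) summed to 34.3, 257 and 1.37 CPM in Ctrl and 31.05, 16.5 and 5.76 CPM in Qk-iCKO lenses, so Ctrl lens 2 carried most of this signal. Of 16 photoreceptor and retina genes tested, 0 were higher and 0 lower although their median log2 fold change was −2.03, and 0 to 2 were higher with each lens left out. Pigment cell markers (Tyr, Tyrp1, Dct and Pmel) summed to 6.13, 6.84 and 3.50 CPM in Ctrl and 132, 21.2 and 6.46 CPM in Qk-iCKO lenses, with Qk-iCKO lens 1 the highest. Red cell markers summed to at most 5.46 CPM and skeletal muscle markers to at most 3.56 CPM in any lens. Endothelial markers (Pecam1, Cdh5, Kdr and Tek) summed to 3.65, 5.56 and 6.93 CPM in Ctrl and 21.7, 10.8 and 17.4 CPM in Qk-iCKO lenses, and 7 of 14 endothelial and mural cell genes were higher (2 to 7 with each lens left out), with a median of 1.70. Vwf, the clotting factor carrier stored by endothelial cells, measured 1.08, 1.28 and 1.44 CPM in the Ctrl lenses and 8.28, 5.13 and 6.16 CPM in the Qk-iCKO lenses (log2 fold change 2.36, SE 0.27, adjusted p = 0.00249, edgeR). Kdr, a defining endothelial receptor, overlapped between the groups. Of 4 cornea and conjunctiva genes tested 2 were higher and of 10 pigment cell genes 1 was lower, calls that were each lost when a Ctrl lens was left out. With the replicate block 3 of the pigment cell genes were higher.

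**Figure D3:**
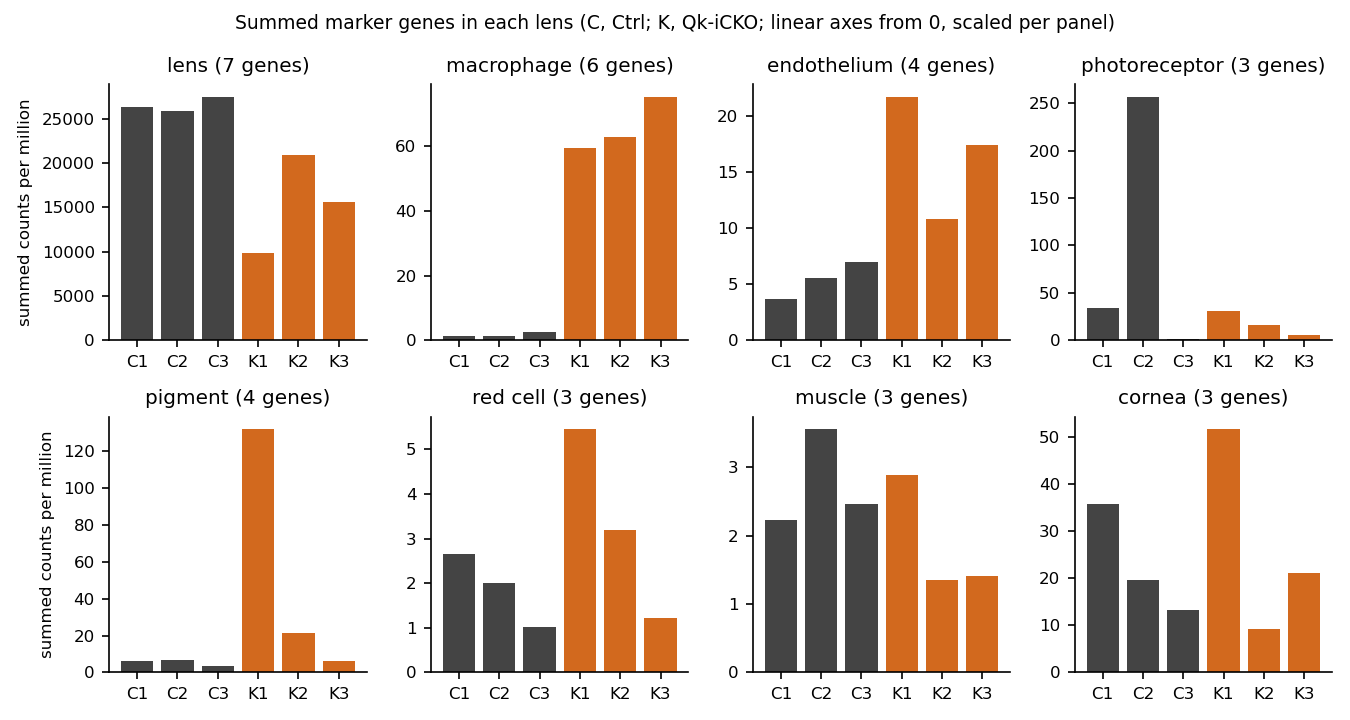
Bars give the summed CPM of the marker genes of 8 tissues in Ctrl lenses 1 to 3 (grey) and Qk-iCKO lenses 1 to 3 (orange), on linear axes from 0 that differ between panels. Macrophage markers are low in all Ctrl lenses and high in all Qk-iCKO lenses, photoreceptor markers peak in Ctrl lens 2 and pigment cell markers in Qk-iCKO lens 1.

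Genes of the fibre cell membrane and its skeleton were called lower and not higher. The 7 lens markers Mip, Lim2, Bfsp1, Bfsp2, Gja3, Foxe3 and Pax6 summed to 26417, 25954 and 27530.1 CPM in Ctrl and 9842, 20957 and 15659.7 CPM in Qk-iCKO lenses, with Qk-iCKO lens 1 the lowest. These markers did not fall as a group. Mip and Gja3 were lower in every Qk-iCKO lens than in any Ctrl lens, while Bfsp1, Bfsp2, Foxe3 and Pax6 overlapped. Bfsp2 measured 7859 CPM in Qk-iCKO lens 2, above its 6237 to 6708 CPM in the Ctrl lenses. Lim2, otherwise known as an abundant fibre membrane protein, is listed with 0 counts in 5 lenses and 1 count in Ctrl lens 2. Of 26 fibre membrane, junction and beaded filament genes tested 7 were lower, against 3.88% of all genes, and 0 higher, with a median log2 fold change of −0.45 (5 to 9 lower with each lens left out, 6 with scaling to total counts alone). Prx, the scaffold protein periaxin that lies under the fibre membrane (chromosome 7, 27499324 to 27520214, plus strand), measured 141, 118 and 134 CPM in the Ctrl lenses and 26.8, 30.01 and 33.2 CPM in the Qk-iCKO lenses (log2 fold change −2.12, SE 0.15, adjusted p = 0.000554, edgeR). Sptan1, the alpha chain of spectrin, measured 1389, 1276 and 1445 CPM in the Ctrl lenses and 569, 607 and 592 CPM in the Qk-iCKO lenses (log2 fold change −1.22, SE 0.17, adjusted p = 0.00512, edgeR). The 2 groups were far apart for both, and the 3 Qk-iCKO lenses nearly alike. The spectrin beta chain Sptbn1 had a log2 fold change of −1.25. The water channel Aqp5 measured 65.5, 54.3 and 57.3 CPM in the Ctrl lenses and 24.9, 22.2 and 22.1 CPM in the Qk-iCKO lenses (log2 fold change −1.35, SE 0.14, adjusted p = 0.0016, edgeR). Mip, the main water channel of fibre cells and the most abundant gene called, measured 9814, 10982 and 11899 CPM in the Ctrl lenses and 1897, 4962 and 3249 CPM in the Qk-iCKO lenses (log2 fold change −1.69, SE 0.37, adjusted p = 0.0259, edgeR). Its call was lost without any 1 of the Ctrl lenses or without Qk-iCKO lens 3 (adjusted p up to 0.0978).

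Some genes of the cytoskeleton were lower as well. Arvcf, a catenin that binds the tail of cadherins, measured 567, 492 and 482 CPM in the Ctrl lenses and 111, 143 and 123 CPM in the Qk-iCKO lenses (log2 fold change −2.03, SE 0.18, adjusted p = 0.000802, edgeR). Among 34 tubulin, kinesin and other microtubule genes 9 were lower and 1 higher, against 3.88 and 8.38% of all genes (4 to 8 lower with each lens left out, 3 with scaling to total counts alone), and their median was −0.26, which became 0.02 with total counts alone and −0.27 once the shift of all genes was taken off. Tuba1a, an alpha-tubulin, measured 749.5, 796 and 849 CPM in the Ctrl lenses and 209.7, 169.6 and 198 CPM in the Qk-iCKO lenses (log2 fold change −2.05, SE 0.17, adjusted p = 0.000749, edgeR). Tubb4b measured 128, 155 and 166 CPM in the Ctrl lenses and 50.3, 44.5 and 48.7 CPM in the Qk-iCKO lenses (log2 fold change −1.64, SE 0.16, adjusted p = 0.0012, edgeR). Tubb2a had a log2 fold change of −1.32. Tubulin genes are close in sequence, so counts may be split between copies. Stmn4, which binds free tubulin, was the member called higher, with 0.166, 0.428 and 0.343 CPM in the Ctrl lenses and 1.78, 3.58 and 4.34 CPM in the Qk-iCKO lenses (log2 fold change 3.29, SE 0.50, adjusted p = 0.00705, edgeR). Myh7b, a myosin heavy chain, measured 56.02, 46.1 and 41.1 CPM in the Ctrl lenses and 8.59, 8.71 and 16.96 CPM in the Qk-iCKO lenses (log2 fold change −2.07, SE 0.29, adjusted p = 0.00547, edgeR). Spag5, a protein of the mitotic spindle, measured 91.6, 80.5 and 100.1 CPM in the Ctrl lenses and 19.6, 21.8 and 23.4 CPM in the Qk-iCKO lenses (log2 fold change −2.07, SE 0.15, adjusted p = 0.000554, edgeR). No Qk-iCKO lens reached the level of a Ctrl lens in either.

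Nuclear transport genes were likewise called lower and not higher. Of 49 tested, 8 were lower, against 3.88% of all genes (2 to 9 with each lens left out, 3 with scaling to total counts alone) and 0 higher, with a median of −0.25 that became 0.03 with total counts alone and −0.26 relative to all genes. Ipo8, an importin, measured 102, 106 and 111 CPM in the Ctrl lenses and 33.995, 34.7 and 31.5 CPM in the Qk-iCKO lenses (log2 fold change −1.67, SE 0.13, adjusted p = 0.00061, edgeR). Every Qk-iCKO lens lay far below every Ctrl lens. Ipo5, another importin, measured 393, 409.8 and 445 CPM in the Ctrl lenses and 188, 209.7 and 229.7 CPM in the Qk-iCKO lenses (log2 fold change −0.99, SE 0.16, adjusted p = 0.00855, edgeR). This call was lost without Ctrl lens 3 (adjusted p = 0.05005, edgeR, the highest over its settings).

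The genes with the largest decreases came from several pathways. Rgs4, a protein that speeds the shut-off of G proteins (chromosome 1, 169741477 to 169747642, minus strand), measured 20.6, 22.7 and 31.5 CPM in the Ctrl lenses and 0.491, 1.94 and 0.808 CPM in the Qk-iCKO lenses (log2 fold change −4.60, SE 0.42, adjusted p = 0.00107, edgeR). Rgs8, of the same family on the same chromosome, measured 18.6, 15.97 and 20.5 CPM in the Ctrl lenses and 4.11, 3.29 and 3.53 CPM in the Qk-iCKO lenses (log2 fold change −2.32, SE 0.17, adjusted p = 0.000554, edgeR). Rxrg, the retinoid X receptor gamma, measured 17.6, 15.4 and 14.1 CPM in the Ctrl lenses and 3.31, 2.13 and 3.23 CPM in the Qk-iCKO lenses (log2 fold change −2.43, SE 0.21, adjusted p = 0.000796, edgeR). These 3 were low in every Qk-iCKO lens and did not overlap with the Ctrl lenses. Rapgef5, an exchange factor for Ras-like GTPases, and Anxa3, a calcium-dependent phospholipid-binding annexin, had log2 fold changes of −2.31 and −2.13. Rspo1, a secreted amplifier of Wnt signals, measured 42.7, 34.4 and 35.2 CPM in the Ctrl lenses and 4.79, 10.7 and 12.5 CPM in the Qk-iCKO lenses (log2 fold change −2.02, SE 0.33, adjusted p = 0.00928, edgeR). Dpf3, a reader subunit of the BAF chromatin remodeller, measured 13.3, 13.05 and 13.3 CPM in the Ctrl lenses and 3.37, 3.39 and 3.53 CPM in the Qk-iCKO lenses (log2 fold change −1.94, SE 0.14, adjusted p = 0.000554, edgeR). Fn3krp, which removes sugar adducts from proteins, measured 123, 130.1 and 120.3 CPM in the Ctrl lenses and 32.8, 40.7 and 37.4 CPM in the Qk-iCKO lenses (log2 fold change −1.75, SE 0.14, adjusted p = 0.000708, edgeR). Dpf3 and Fn3krp were picked for their small p, their replicates differed little and the groups stood apart. Sowaha, Dusp15, Zswim5 and Pip5kl1 had log2 fold changes of −2.18, −2.07, −2.07 and −2.01. They are the others among the 15 largest decreases of named genes with at least 10 CPM in Ctrl lenses.

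Transcription factors that set up the lens were called in both directions. Of 20 tested, 1 was higher and 3 lower, or 5 and 15% beside 8.38 and 3.88% of all genes. Their median was −0.09, which turned to 0.14 with total counts alone and stayed at −0.16 relative to all genes. The lower calls (Mafg, Meis2 and Rarb) were each lost with total counts alone and without any 1 of the Ctrl lenses. Pax6 measured 71.8, 68.3 and 65.8 CPM in the Ctrl lenses and 63.9, 75.3 and 61.5 CPM in the Qk-iCKO lenses, and the groups overlapped.

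Matrix genes were called higher more often than lower. Of 29 matricellular and epithelial-mesenchymal transition genes 9 were higher and 0 lower (6 to 11 higher with each lens left out, 15 with the replicate number as a block), with a median of 0.90. Fn1, fibronectin, measured 1.57, 0.570 and 0.961 CPM in the Ctrl lenses and 68.4, 40.5 and 104 CPM in the Qk-iCKO lenses (log2 fold change 6.11, SE 0.49, adjusted p = 0.000612, edgeR), with Qk-iCKO lens 3 the highest. Postn, periostin, measured 0.912, 0.570 and 0.686 CPM in the Ctrl lenses and 48.6, 41.6 and 46.5 CPM in the Qk-iCKO lenses (log2 fold change 5.97, SE 0.21, adjusted p = 2.46e-05, edgeR). Tgfbi, a matrix protein induced by TGF-beta, measured 0.663, 0.642 and 0.343 CPM in the Ctrl lenses and 33.3, 27.2 and 28.5 CPM in the Qk-iCKO lenses (log2 fold change 5.75, SE 0.24, adjusted p = 7.90e-05, edgeR). Both rose evenly in the 3 Qk-iCKO lenses. Emp1, an epithelial membrane protein, had a log2 fold change of 6.89. Macrophages also make Fn1 and Tgfbi, and the part of the macrophage signal in these increases was not tested. Tgm2, a transglutaminase that cross-links proteins, measured 0.0829, 0.285 and 0 CPM in the Ctrl lenses and 49.2, 16.1 and 85.3 CPM in the Qk-iCKO lenses (log2 fold change 8.56, SE 0.93, adjusted p = 0.00189, edgeR).

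Of 29 collagen genes 5 were higher and 1 lower, or 17.2 and 3.45% beside 8.38 and 3.88% of all genes. Between 1 and 8 were higher with each lens left out, and 12 with the replicate block. Their median was 1.14. Col5a2, a fibrillar collagen, measured 0.414, 0.570 and 0.343 CPM in the Ctrl lenses and 2.15, 2.03 and 2.93 CPM in the Qk-iCKO lenses (log2 fold change 2.39, SE 0.35, adjusted p = 0.00628, edgeR). The lower member was Col4a1, a chain of the basement membrane collagen of the capsule, with 2511, 2067 and 2495 CPM in the Ctrl lenses and 974, 1216 and 1458 CPM in the Qk-iCKO lenses (log2 fold change −0.95, SE 0.22, adjusted p = 0.0333, edgeR). Its call was lost without any 1 of the Ctrl lenses or without Qk-iCKO lens 2 (adjusted p up to 0.131). So the scarce fibrillar chain was high in each Qk-iCKO lens while the abundant capsule chain was low in each. Of 27 laminin and integrin genes 6 were higher and 2 lower, or 22.2 and 7.41%. The replicate block gave 10 higher, and leaving out each lens 3 to 10. Lama3, a laminin chain, measured 7.62, 5.85 and 4.26 CPM in the Ctrl lenses and 1.17, 0.968 and 1.51 CPM in the Qk-iCKO lenses (log2 fold change −2.27, SE 0.31, adjusted p = 0.00509, edgeR). Itga9, an integrin chain, measured 0.663, 0.927 and 1.24 CPM in the Ctrl lenses and 5.40, 5.42 and 3.94 CPM in the Qk-iCKO lenses (log2 fold change 2.37, SE 0.31, adjusted p = 0.00417, edgeR). Each Qk-iCKO lens lay above each Ctrl lens. Itgb2 (log2 fold change 6.07), also called higher, is the leukocyte integrin chain and counted among the macrophage genes too.

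Matrix proteases and their inhibitors had 8 higher and 1 lower of 27, or 29.6 and 3.70% beside 8.38 and 3.88% of all genes. Between 3 and 12 were higher with each lens left out, and the median was 0.75. Adamts4 measured 13.4, 15.8 and 13.04 CPM in the Ctrl lenses and 46.02, 29.04 and 43.4 CPM in the Qk-iCKO lenses (log2 fold change 1.49, SE 0.20, adjusted p = 0.00501, edgeR). Adamts18, a protease of the same family, measured 141, 134 and 141 CPM in the Ctrl lenses and 53.8, 56.1 and 70.4 CPM in the Qk-iCKO lenses (log2 fold change −1.21, SE 0.16, adjusted p = 0.00379, edgeR). These relatives thus moved in opposite directions without overlap of the groups in either. Timp1, an inhibitor of metalloproteases, measured 2.24, 1.21 and 1.37 CPM in the Ctrl lenses and 14.4, 8.13 and 6.06 CPM in the Qk-iCKO lenses (log2 fold change 2.59, SE 0.40, adjusted p = 0.00741, edgeR). Plau, the urokinase that activates plasminogen, had 1 count over the Ctrl lenses and a ratio of 56.8 (95% counting interval 9.74 to 2286). Of 22 smooth muscle and actin contractile genes 4 were higher and 0 lower, or 18.2 and 0%. Leaving out each lens gave 2 to 6 higher, and the replicate block 7. Myl9, a myosin light chain, measured 5.14, 5.06 and 4.12 CPM in the Ctrl lenses and 23.4, 25.3 and 22.8 CPM in the Qk-iCKO lenses (log2 fold change 2.32, SE 0.15, adjusted p = 0.000279, edgeR), with little spread in either group. Among 7 fibroblast and ocular mesenchyme genes tested 1 was higher and 1 lower, or 14.3% each (4 higher with the replicate block). Islr measured 36.6, 33.5 and 38.5 CPM in the Ctrl lenses and 80.8, 107 and 84.4 CPM in the Qk-iCKO lenses (log2 fold change 1.32, SE 0.16, adjusted p = 0.00304, edgeR). Ogn, the small proteoglycan osteoglycin, measured 276, 279 and 353 CPM in the Ctrl lenses and 83.1, 120.3 and 86.6 CPM in the Qk-iCKO lenses (log2 fold change −1.65, SE 0.21, adjusted p = 0.0035, edgeR). Only 7 of the 18 listed genes of these cells had enough counts to test.

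**Figure D4:**
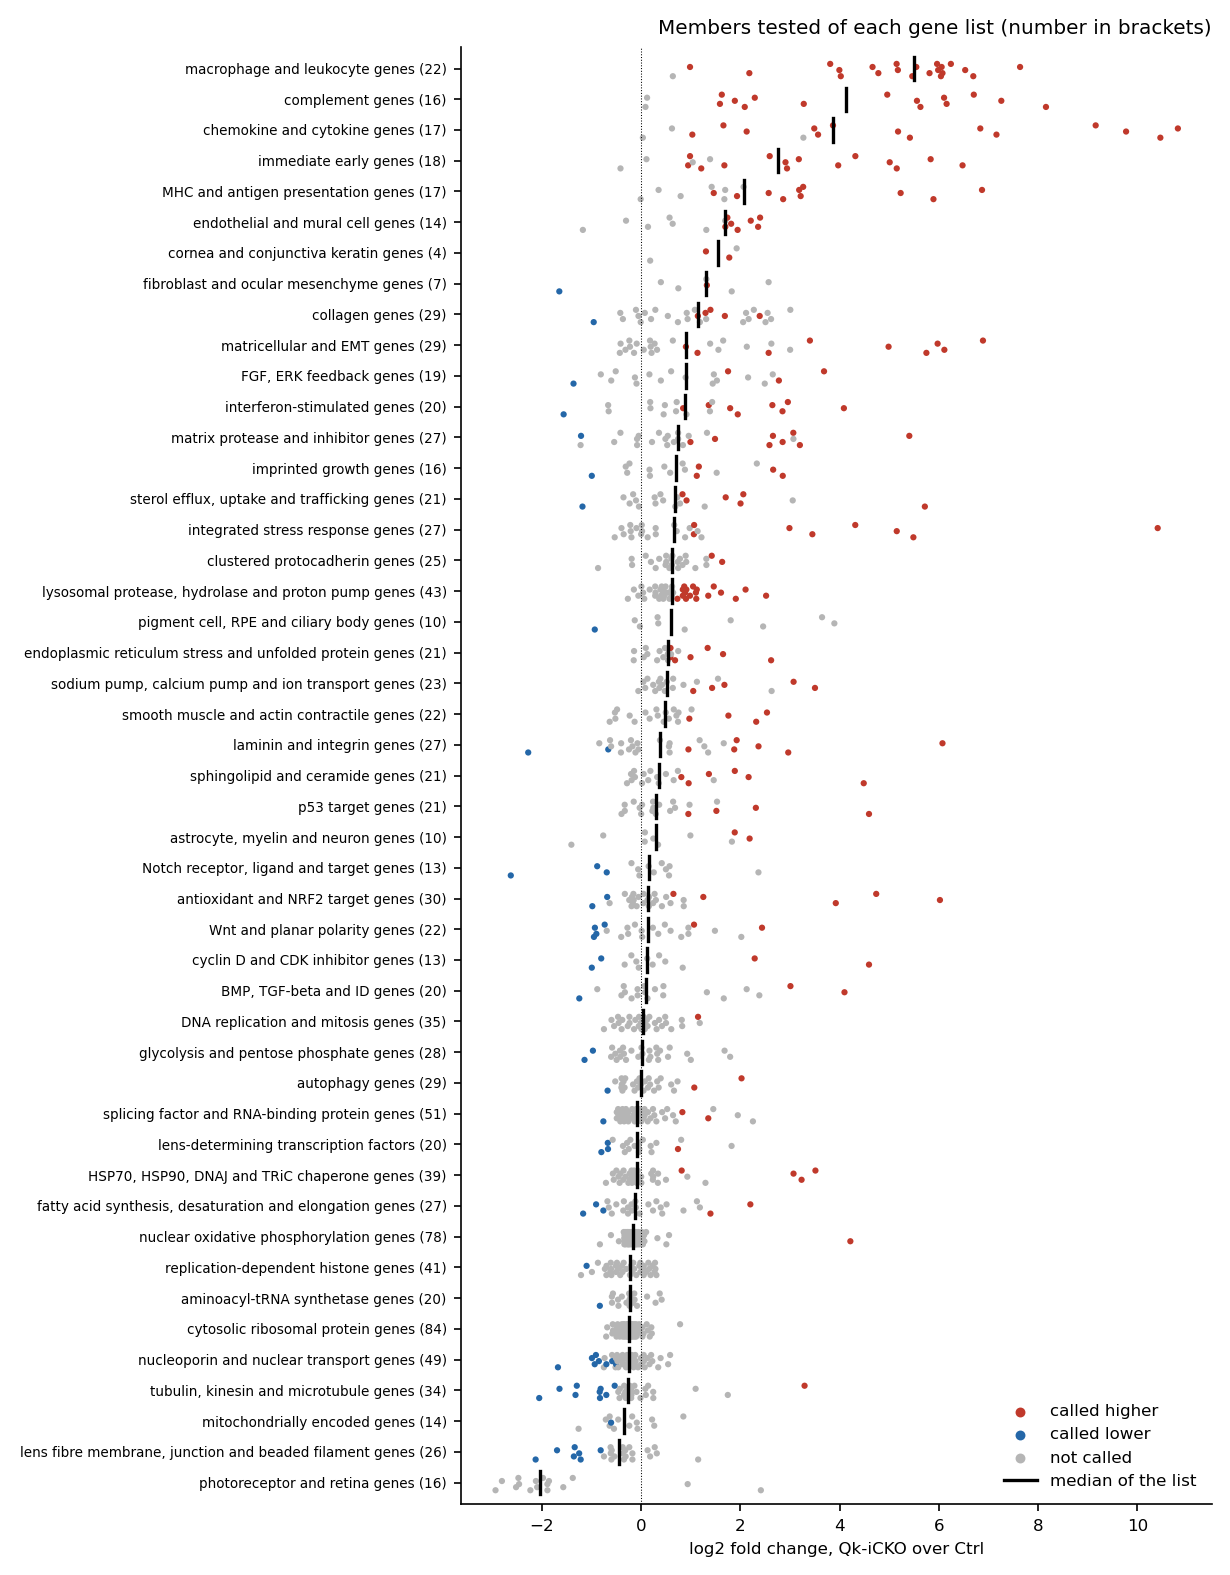
Each row is 1 of the 47 gene lists with at least 4 members tested, ordered by the median log2 fold change of Qk-iCKO over Ctrl lenses (black bar), and each point is a member tested, in red if called higher, blue if called lower and grey otherwise. Macrophage, complement, chemokine and immediate early genes lie at the top. The lists with the most blue points are those of tubulin (9), nuclear transport (8) and fibre membrane genes (7), and the other blue points are spread over many lists. In the photoreceptor list at the bottom, with a median of −2.03, no member is called.

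Immediate early genes, the transcription factors that cells switch on within minutes of a stimulus, rose broadly. Of 18 tested 14 were higher and 0 lower (8 to 16 higher with each lens left out), with a median of 2.75. Here too, members scarce in Ctrl lenses entered the test through the Qk-iCKO lenses. Fos measured 0.331, 0.356 and 0.343 CPM in the Ctrl lenses and 24.7, 10.3 and 25.4 CPM in the Qk-iCKO lenses (log2 fold change 5.83, SE 0.46, adjusted p = 0.000612, edgeR). Klf4 measured 1.33, 0.784 and 0.686 CPM in the Ctrl lenses and 42.1, 15.8 and 31.4 CPM in the Qk-iCKO lenses (log2 fold change 5.01, SE 0.45, adjusted p = 0.000951, edgeR). Junb measured 1.41, 1.28 and 0.824 CPM in the Ctrl lenses and 37.4, 15.003 and 17.2 CPM in the Qk-iCKO lenses (log2 fold change 4.32, SE 0.44, adjusted p = 0.00157, edgeR). Each of the 3 was lowest in Qk-iCKO lens 2 of its group and still several times above any Ctrl lens. Klf2 had a log2 fold change of 2.59.

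Growth factor pathways gave fewer calls. Of 19 FGF and ERK feedback genes 3 were higher and 1 lower, or 15.8 and 5.26% beside 8.38 and 3.88% of all genes. The replicate block gave 7 higher and 3 lower, and leaving out each lens 0 to 7 higher. Fgfr3, a receptor for the FGFs that drive fibre differentiation, measured 195, 171 and 185 CPM in the Ctrl lenses and 73.1, 69.3 and 72.1 CPM in the Qk-iCKO lenses (log2 fold change −1.36, SE 0.14, adjusted p = 0.00146, edgeR). The Qk-iCKO lenses were nearly identical. Etv4, Dusp4 and Dusp6, targets and feedback inhibitors of ERK, had log2 fold changes of 3.69, 1.75 and 2.78, with calls that were lost without Ctrl lens 1 or 2, for Etv4 and Dusp6 also without Ctrl lens 3 and for Dusp6 also without Qk-iCKO lens 1 or 2 (adjusted p up to 0.0609, 0.0781 and 0.102). Of 13 Notch genes 0 were higher and 3 lower (1 to 3 lower with each lens left out, 1 with total counts alone). The lower share was 23.1% beside 3.88% of all genes, although the median of the list was 0.15. Hes5, a repressor that Notch switches on, measured 4.31, 6.27 and 6.31 CPM in the Ctrl lenses and 1.17, 0.387 and 1.11 CPM in the Qk-iCKO lenses (log2 fold change −2.63, SE 0.39, adjusted p = 0.00678, edgeR). Lfng, which adds sugar to Notch, measured 71.4, 60.6 and 55.6 CPM in the Ctrl lenses and 34.2, 32.4 and 34.9 CPM in the Qk-iCKO lenses (log2 fold change −0.88, SE 0.14, adjusted p = 0.00901, edgeR). This call was lost with total counts alone or without Ctrl lens 1 (adjusted p up to 0.184). Of 22 Wnt and planar polarity genes 2 were higher and 4 lower, or 9.09 and 18.2%. Between 0 and 5 were lower with each lens left out, and 4 were higher with the replicate block. With total counts alone 0 were lower. The ligand Wnt7b measured 389, 340.4 and 358 CPM in the Ctrl lenses and 189.7, 175 and 199 CPM in the Qk-iCKO lenses (log2 fold change −0.95, SE 0.15, adjusted p = 0.00825, edgeR). This call was lost with total counts alone or without Ctrl lens 1 (adjusted p up to 0.12). Of 20 BMP, TGF-beta and ID genes 2 were higher and 1 lower, shares near the 8.38 and 3.88% of all genes. Leaving out each lens gave 0 to 5 higher, the replicate block 5 higher and total counts alone 0 lower. Id2, an inhibitor of helix-loop-helix factors, measured 30.6, 31.5 and 31.7 CPM in the Ctrl lenses and 12.9, 12.3 and 14.3 CPM in the Qk-iCKO lenses (log2 fold change −1.25, SE 0.13, adjusted p = 0.00166, edgeR). The call of Id2 was lost with total counts alone (adjusted p = 0.0524, edgeR, the highest over its settings).

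Genes of DNA replication and mitosis gave few calls. Of 35 replication and mitosis genes 1 was higher and 0 lower, shares of 2.86 and 0% beside 8.38 and 3.88% of all genes, with a median of 0.04. Of 13 cyclin D and CDK inhibitor genes 2 were higher and 2 lower (1 to 2 higher and 0 to 2 lower with each lens left out). These are shares of 15.4% in each direction, beside 8.38 and 3.88% of all genes, and with total counts alone 0 were lower. The inhibitor of cyclin-dependent kinases Cdkn1a, or p21, measured 0.249, 0.214 and 0.206 CPM in the Ctrl lenses and 8.77, 2.71 and 5.05 CPM in the Qk-iCKO lenses (log2 fold change 4.59, SE 0.55, adjusted p = 0.00287, edgeR). Cdkn1a is also a p53 target, and of 21 p53 targets 4 were higher and 0 lower (2 to 5 higher with each lens left out), among them Plk2, a kinase of the stress response, which measured 0.746, 1.14 and 1.30 CPM in the Ctrl lenses and 5.77, 5.23 and 5.05 CPM in the Qk-iCKO lenses (log2 fold change 2.31, SE 0.27, adjusted p = 0.00277, edgeR). Of 16 imprinted growth genes 4 were higher and 1 lower, or 25 and 6.25%. Leaving out each lens gave 2 to 5 higher. Meg3, a noncoding RNA expressed from the maternal allele, measured 8.62, 14.2 and 12.2 CPM in the Ctrl lenses and 56.7, 65.04 and 100.4 CPM in the Qk-iCKO lenses (log2 fold change 2.66, SE 0.28, adjusted p = 0.00169, edgeR). Igf2r, the receptor that carries lysosomal enzymes and removes IGF2, measured 69.8, 59.7 and 58.8 CPM in the Ctrl lenses and 130.3, 135 and 145 CPM in the Qk-iCKO lenses (log2 fold change 1.12, SE 0.14, adjusted p = 0.00364, edgeR).

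Stress genes were called higher in some pathways. The integrated stress response slows translation and switches on ATF4 targets. Of its 27 genes tested 8 were higher and 0 lower, or 29.6 and 0% beside 8.38 and 3.88% of all genes. Between 6 and 9 were higher with each lens left out, and the median was 0.67. Ddit3, the transcription factor CHOP, measured 5.14, 4.56 and 5.29 CPM in the Ctrl lenses and 35.4, 27.6 and 56.2 CPM in the Qk-iCKO lenses (log2 fold change 2.99, SE 0.28, adjusted p = 0.00114, edgeR). Chac1, which degrades glutathione, had 0 counts in the Ctrl lenses and 13.2, 3.68 and 22.7 CPM in the Qk-iCKO lenses, at least 179-fold higher (adjusted p = 0.0109, edgeR). Gdf15, a secreted stress cytokine, measured 0.497, 0.285 and 0.137 CPM in the Ctrl lenses and 4.72, 7.45 and 6.26 CPM in the Qk-iCKO lenses (log2 fold change 4.31, SE 0.42, adjusted p = 0.00134, edgeR). All 3 genes were low in every Ctrl lens and raised in every Qk-iCKO lens. Atf3 and Cebpb had log2 fold changes of 5.15 and 3.45. The 20 aminoacyl-tRNA synthetases, many of which are known as ATF4 targets, did not share this direction: 0 were higher and 1 lower, and their median was −0.23, or 0.03 with total counts alone and −0.26 relative to all genes.

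Of 21 endoplasmic reticulum stress genes 7 were higher and 0 lower, or 33.3 and 0% beside 8.38 and 3.88% of all genes. Between 1 and 6 were higher with each lens left out, and the median was 0.54. Sdf2l1, a luminal protein of the reticulum, measured 0.414, 1.57 and 1.10 CPM in the Ctrl lenses and 4.79, 7.16 and 7.47 CPM in the Qk-iCKO lenses (log2 fold change 2.62, SE 0.43, adjusted p = 0.00911, edgeR). Of 39 cytosolic chaperone genes (HSP70, HSP90, DNAJ and TRiC) 4 were higher and 0 lower, or 10.3 and 0% beside 8.38 and 3.88% of all genes. Between 1 and 4 were higher with each lens left out. Their median was −0.09, which turned to 0.13 with total counts alone and was −0.17 relative to all genes. With female lenses only, in which Qk-iCKO lens 1 is the single Qk-iCKO lens, the median of the chaperone genes was −0.57. Their sum was 2881 CPM in Qk-iCKO lens 1, 4920.4 and 4679.5 CPM in lenses 2 and 3 and 4289.9 to 4922 CPM in the Ctrl lenses. Hspb8, a small heat shock protein that works with autophagy, measured 0.746, 0.642 and 1.65 CPM in the Ctrl lenses and 10.6, 6.78 and 11.7 CPM in the Qk-iCKO lenses (log2 fold change 3.23, SE 0.39, adjusted p = 0.00309, edgeR). The stress-inducible Hspa1a measured 0.249, 0.499 and 0.0686 CPM in the Ctrl lenses and 2.58, 2.23 and 2.22 CPM in the Qk-iCKO lenses (log2 fold change 3.07, SE 0.52, adjusted p = 0.0103, edgeR). This call was lost without Ctrl lens 1 (adjusted p = 0.0632, edgeR, the highest over its settings), and it shares nearly all of its sequence with Hspa1b. Of 30 antioxidant and NRF2 target genes 5 were higher and 2 lower, or 16.7 and 6.67%. Leaving out each lens gave 1 to 8 higher. Srxn1, which repairs peroxiredoxins, measured 6.46, 5.35 and 5.15 CPM in the Ctrl lenses and 13.7, 11.8 and 14.8 CPM in the Qk-iCKO lenses (log2 fold change 1.25, SE 0.17, adjusted p = 0.00451, edgeR), with groups that did not overlap.

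A large share of the lysosomal genes rose, by modest amounts. Of 43 proteases, hydrolases and proton pump subunits 18 were higher and 0 lower, or 41.9 and 0% beside 8.38 and 3.88% of all genes. Between 6 and 19 were higher with each lens left out, the fewest without Ctrl lens 1. A log2 fold change above 0 was found in 40, beside 50.7% of all genes, and the median was 0.62. Summed over the list they measured 2384, 2439 and 2524 CPM in the Ctrl lenses and 3903, 3554 and 3685 CPM in the Qk-iCKO lenses. Grn, the growth factor precursor progranulin, measured 44.00, 41.7 and 38.4 CPM in the Ctrl lenses and 217, 126 and 191 CPM in the Qk-iCKO lenses (log2 fold change 2.10, SE 0.22, adjusted p = 0.00169, edgeR). Ctsb, a cysteine protease, measured 64.6, 61.2 and 59.9 CPM in the Ctrl lenses and 202, 152 and 158 CPM in the Qk-iCKO lenses (log2 fold change 1.46, SE 0.16, adjusted p = 0.00206, edgeR). Ctsa, a carboxypeptidase that also shields neuraminidase, measured 24.1, 23.5 and 24.2 CPM in the Ctrl lenses and 51.9, 51.1 and 53.3 CPM in the Qk-iCKO lenses (log2 fold change 1.12, SE 0.12, adjusted p = 0.00169, edgeR). Each Qk-iCKO lens was higher than each Ctrl lens in all 3, and the levels in Ctrl lenses were not near 0. Ctsc had a log2 fold change of 1.91. Macrophages are rich in lysosomes, their summed markers rose over the same lenses, and how much of the rise came from them was not tested. Of 29 autophagy genes 2 were higher and 1 lower, or 6.90 and 3.45%, near the 8.38 and 3.88% of all genes. Their median was −0.0037, or 0.26 with total counts alone and −0.03 relative to all genes. Sqstm1, the receptor p62 that hands ubiquitin-tagged cargo to autophagy, measured 97.4, 91.8 and 99.5 CPM in the Ctrl lenses and 355, 341 and 477 CPM in the Qk-iCKO lenses (log2 fold change 2.02, SE 0.19, adjusted p = 0.00105, edgeR). Map1lc3a, which coats the autophagosome, measured 7.13, 6.77 and 7.001 CPM in the Ctrl lenses and 16.3, 11.7 and 15.9 CPM in the Qk-iCKO lenses (log2 fold change 1.07, SE 0.17, adjusted p = 0.00825, edgeR).

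Outside cholesterol synthesis, lipid genes did not move as one. Of the sphingolipid genes and of the sterol efflux, uptake and trafficking genes 28.6% each were called higher, beside 8.38% of all genes. Of 21 sphingolipid and ceramide genes 6 were higher and 0 lower (2 to 7 higher with each lens left out), with a median of 0.36. Sgms2, a sphingomyelin synthase, measured 0.331, 0.143 and 0.480 CPM in the Ctrl lenses and 12.1, 6.10 and 3.63 CPM in the Qk-iCKO lenses (log2 fold change 4.49, SE 0.60, adjusted p = 0.00446, edgeR). B4galt5, which makes lactosylceramide, measured 8.37, 8.48 and 7.89 CPM in the Ctrl lenses and 18.5, 15.1 and 14.3 CPM in the Qk-iCKO lenses (log2 fold change 0.96, SE 0.15, adjusted p = 0.00816, edgeR). Of 21 sterol efflux, uptake and trafficking genes 6 were higher and 1 lower (1 to 8 higher with each lens left out). Ch25h, which makes 25-hydroxycholesterol and is strong in macrophages, had 1 count over the Ctrl lenses and a ratio of 73.5 (95% counting interval 12.7 to 2945). The efflux pump Abca1 measured 7.21, 4.78 and 8.72 CPM in the Ctrl lenses and 31.6, 13.6 and 22.01 CPM in the Qk-iCKO lenses (log2 fold change 1.70, SE 0.34, adjusted p = 0.0192, edgeR). The call of Abca1 was lost without Ctrl lens 1 or 2 (adjusted p up to 0.0806). Of 27 fatty acid genes 2 were higher and 3 lower, shares of 7.41 and 11.1% beside 8.38 and 3.88% of all genes. Leaving out each lens gave 1 to 3 higher and 0 to 3 lower, and total counts alone 0 lower. Acsl5, which activates fatty acids, measured 2.73, 2.495 and 2.68 CPM in the Ctrl lenses and 14.5, 10.7 and 11.1 CPM in the Qk-iCKO lenses (log2 fold change 2.20, SE 0.19, adjusted p = 0.000796, edgeR). The desaturase Scd2 measured 695, 529 and 595 CPM in the Ctrl lenses and 305, 220.1 and 284 CPM in the Qk-iCKO lenses (log2 fold change −1.17, SE 0.20, adjusted p = 0.0106, edgeR). The call of Scd2 was lost with total counts alone or without Ctrl lens 1 (adjusted p up to 0.122).

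The large housekeeping groups gave few calls with all lenses, and Qk-iCKO lens 1 had the lowest sums of ribosomal protein and oxidative phosphorylation genes. None of 84 ribosomal protein genes was called (median −0.25, 0 to 2 lower with each lens left out and 2 lower with DESeq2). Their sum was 7131 CPM in Qk-iCKO lens 1, 14557 and 12978 CPM in lenses 2 and 3 and 13386 to 14070.3 CPM in the Ctrl lenses. Without Qk-iCKO lens 1 the median was 0.03, and with female lenses only, in which that lens is the single Qk-iCKO lens, 69 were lower with a median of −0.96. Of 78 nuclear genes of oxidative phosphorylation 1 was higher and 0 lower (median −0.16, 0.06 with total counts alone and −0.23 relative to all genes). Their sum was 3234 CPM in Qk-iCKO lens 1, 5109 and 4867 CPM in lenses 2 and 3 and 4796 to 5329.7 CPM in the Ctrl lenses, and with female lenses only 44 were lower with a median of −0.65. The gene called higher was Cox6a2, a heart and muscle form of a cytochrome oxidase subunit, which measured 0.746, 0.214 and 0.824 CPM in the Ctrl lenses and 6.57, 7.26 and 19.9 CPM in the Qk-iCKO lenses (log2 fold change 4.22, SE 0.62, adjusted p = 0.00618, edgeR), with Qk-iCKO lens 3 the highest. Of 14 mitochondrially encoded genes 1 was lower and 0 higher, and 0 to 5 were lower with each lens left out, the most without Qk-iCKO lens 1, and 3 with the replicate block. Of 28 glycolysis and pentose phosphate genes 0 were higher and 2 lower (3 higher with the replicate block). The aldolase Aldoc measured 626, 655 and 604 CPM in the Ctrl lenses and 233, 302 and 319 CPM in the Qk-iCKO lenses (log2 fold change −1.14, SE 0.18, adjusted p = 0.00825, edgeR), less than any Ctrl lens in each Qk-iCKO lens. Of 41 histone genes 0 were higher and 1 lower, a call that no fit without a lens kept.

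Since Qk acts on RNA, genes for splicing factors and other RNA-binding proteins were counted too. Of 51 tested 2 were higher and 1 lower (5 higher with the replicate block), or 3.92 and 1.96% beside 8.38 and 3.88% of all genes. Their median was −0.07, which turned to 0.24 with total counts alone and was −0.06 relative to all genes. Rbfox2, a splicing regulator, measured 6.71, 6.20 and 5.70 CPM in the Ctrl lenses and 18.6, 12.3 and 16.6 CPM in the Qk-iCKO lenses (log2 fold change 1.35, SE 0.19, adjusted p = 0.00544, edgeR). All 3 Qk-iCKO lenses lay above the Ctrl lenses. The noncoding RNA Neat1, on which paraspeckles are built, measured 81.9, 63.5 and 31.99 CPM in the Ctrl lenses and 630.4, 326 and 612 CPM in the Qk-iCKO lenses (log2 fold change 3.15, SE 0.41, adjusted p = 0.00429, edgeR). Its lowest Qk-iCKO lens was well above its highest Ctrl lens. Counts per gene do not show splicing.

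Ion transport genes were higher where they were called. Of 23 pump and channel genes 5 were higher and 0 lower, or 21.7 and 0% beside 8.38 and 3.88% of all genes. Their median was 0.52. Between 0 and 6 were higher with each lens left out, and without Ctrl lens 1 no member was called. Fxyd5, a regulator of the sodium pump that is not on that list, measured 0.0829, 0.143 and 0.137 CPM in the Ctrl lenses and 9.51, 7.55 and 9.39 CPM in the Qk-iCKO lenses (log2 fold change 6.06, SE 0.30, adjusted p = 0.00015, edgeR). Of 10 astrocyte, myelin and neuron genes 2 were higher and 0 lower, or 20 and 0%. The higher ones included Nes, the intermediate filament nestin whose promoter drives the Cre, which measured 6.88, 6.49 and 4.74 CPM in the Ctrl lenses and 34.5, 33.5 and 14.1 CPM in the Qk-iCKO lenses (log2 fold change 2.19, SE 0.35, adjusted p = 0.00871, edgeR), with Qk-iCKO lens 3 between the other Qk-iCKO lenses and the Ctrl lenses. Of 25 clustered protocadherin genes 2 were higher and 0 lower, or 8 and 0% beside 8.38 and 3.88% of all genes. These calls were lost when Ctrl lens 1 or 2 was left out, although 22 of the 25 had a log2 fold change above 0, beside 50.7% of all genes.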

How the data were processed

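The authors isolated total RNA from freshly dissected lenses, made stranded paired-end libraries, sequenced them on Illumina instruments, used STAR for alignment to mm10 and HTSeq for counting per gene. The submitters' processing notes name STAR 2.6.1b and HTSeq 0.11.0, and also HISAT2 2.0.4 and featureCounts without a role. The deposited lens values are raw counts per gene, without normalization, and the tables of the cultured cells were not used here.

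Genes were filtered with filterByExpr (count of at least 10, total of at least 15), scaled by TMM and tested in R 4.3.3 with edgeR 4.0.16 (quasi-likelihood), with group as the only term and Benjamini-Hochberg adjustment over all genes tested. The biological coefficient of variation was 0.260. With 3 lenses against 3, an exact permutation test of a single value cannot give a p under 0.10. The labels do not say whether the lenses of a group came from separate litters or extractions, so p-values measure the spread between these samples. A fold against 0 counts was taken against a floor of 3 counts over the group, and intervals of ratios are exact 95% intervals that cover counting error only.

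The 49 gene lists (1506 genes) and the rule for single genes were chosen with earlier results of these data known. The rule took, in each direction, the 15 called genes with the largest changes (at least 10 CPM in the higher group and no overlap of the groups), the 8 most abundant and the 8 with the smallest p, up to 4 called genes of each list with the smallest p, or 2 abundant members of a list without calls, and Qk and Nes. Lists are described by counts and medians, without a set test. The medians are the same with genes at 0 in Ctrl set to their bound. Symbols were matched to GENCODE vM21 (11797 of the 12201 genes tested).

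The same-numbered Ctrl and Qk-iCKO lenses were checked for pairing after group means were subtracted, and their correlations across genes were 0.23, 0.13 and 0.52. Each lay above the threshold of 0.1 set for this. Correlations of lenses with different numbers are not given beside them, so this does not settle whether the numbers pair the samples. The labels do not say what a number shares, and the main fit does not use it. The fit with the number as a block is given where it ends a call or moves a count of list members by over 1.5 times and by more than 1 gene. The alternatives were RLE size factors, total counts alone, TMM factors without crystallins, 2 other count filters, DESeq2 1.42.0, the replicate block, each lens left out, a minimum change of 2-fold and, added after seeing the data, female lenses only. The steps were tested on simulated data. Some genes that the rule or the marker lists name are not reported here, and the summed markers leave them out.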

Additional observations from a re-analysis of the deposited data

How the results depend on the processing

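All genes called both with the settings used above and under 1 of the other settings that refit the data kept their direction. RLE size factors (1495 calls) and TMM factors without crystallins (1496) left the counts in place. Against 1496 calls, 1023 higher and 473 lower, total counts alone gave 884 (116 lower). A filter of 1 count in total gave 2521 (1904 higher), and a floor of 10 counts in all 6 lenses gave 610 higher. With a minimum change of 2-fold, 191 were lower. With each lens left out there were 581 to 1709 calls, 437 to 1298 of them higher and 144 to 479 lower. The replicate block gave 1982 calls and DESeq2 2063. Female lenses only, a setting chosen after seeing the data, gave 3696 (2132 higher, 1564 lower), with Qk-iCKO lens 1 alone assumed to vary like the Ctrl lenses. The cause of these shifts was not tested.

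Of the single genes, Rpl41, a ribosomal protein gene, reversed with female lenses only (log2 fold change −0.66, against 0.03 with all lenses). Total counts alone ended 33 calls, leaving out a Ctrl lens 58 to 77, and leaving out a Qk-iCKO lens 15 to 23. The replicate block ended 4 calls and changed no other call of a single gene. Those of Mgarp, Rarb and Hist3h2a were among the 4 (adjusted p from edgeR 0.0577, 0.0512 and 0.054). With 10319320 to 16425331 counts per lens, genes with a few counts have wide errors.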
